A study of Mus musculus with 8 samples.

Results

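Eda2r and 8 further genes that p53 is known to switch on and that promote or modulate cell death (Zmat3, Phlda3, Aen, Bax, Bbc3, Pmaip1, Fas and Perp) were followed in lung endothelial cells (ECs) of neonatal mice. These 9 genes were taken by symbol from a table of 54532 genes. Several of them were chosen by their large fold change between hyperoxia and normoxia in these same libraries, so that difference is described here without a p-value. The bulk RNA-seq libraries came from wild-type C57BL/6J pups at postnatal day 14, which carried no transgene or deletion. In the normoxia group the pups had lived in room air (21% O2), and in the hyperoxia group they had lived in 80% O2 from day 0 to day 14, with 4 libraries in each group. Lung cells were first depleted of CD45-positive leukocytes and then collected on beads against CD31, an EC surface protein, so the isolate is enriched for ECs but not pure. The labels do not say how many pups went into a library, and p-values measure only the spread between these libraries. RNA of both sexes (Xist and chromosome Y counts) was present in 5 libraries.

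p53 is a transcription factor that is stabilised when DNA is damaged, and it then raises genes for cell cycle arrest, repair and death. On the death side it acts through the mitochondrial route, in which BAX perforates the outer mitochondrial membrane and the BH3-only proteins PUMA (Bbc3) and NOXA (Pmaip1) disarm the BCL2-type guardians, and through the surface route, in which death receptors such as FAS recruit caspases. High oxygen is known to damage DNA through reactive oxygen species, and ECs of the lung capillaries lie directly below the exposed surface.

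In the promoter table of RefSeq (GRCm38.p6, 250 bases before to 50 bases after each gene start) 6 of the 9 genes were found, with 9 windows between them. They are Eda2r, Phlda3, Aen, Bax, Bbc3 and Fas. The windows were searched for the 10-base p53 consensus repeat unit and for the 20-base p53 consensus without spacer at up to 3 mismatches, with the C and G of both cores kept. Both patterns read alike on the 2 strands, so each search covers both, and the longer pattern can contain the shorter. The 30-base stretches that hold the matches are shown because they are the only places where these promoters spell such a pattern, with the matching bases in capitals.
Bbc3, chr7:16309481-16309510, + strand: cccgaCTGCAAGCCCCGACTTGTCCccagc
Aen, chr7:78895932-78895961, + strand: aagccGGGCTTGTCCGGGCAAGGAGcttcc
Bax, chr7:45467080-45467109, - strand: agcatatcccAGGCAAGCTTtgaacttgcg

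The Bbc3 match is a 20-base element with 3 mismatches, in an intron of the gene model of GENCODE M21. The Aen match is also a 20-base element with 3 mismatches, its first 10 bases are a full repeat unit, and it lies in an annotated exon. The Bax match is a single repeat unit upstream of the gene. The 20-base element was in 2 of the 6 member genes, against 1.63% of 27025 genes in the promoter table, and the repeat unit was in 2 of 6, against 9.55%. A pair of CATG cores 6 bases apart was in 0 of 6, against 0.833%. These shares are descriptions, and the windows without a match say only that these letters are absent from 300 bases around the start. Eda2r was such a gene. The 150 bases before its annotated first base, on the minus strand at chrX:97377217-97377366, are shown because Eda2r had the widest difference of the 9 genes.
Eda2r: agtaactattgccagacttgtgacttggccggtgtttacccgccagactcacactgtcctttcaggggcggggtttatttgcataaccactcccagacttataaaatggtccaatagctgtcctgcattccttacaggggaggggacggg

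All 9 genes were higher in every hyperoxia library than in any normoxia library, and the fitted fold change between the groups ran from 1.18 (Fas) to 40.2 (Eda2r). Levels are given as CPM, the counts scaled to a common library size after TMM normalisation. A positive log2 fold change means a higher level in hyperoxia, and its standard error (SE) is that of the edgeR fit. A gene was called when the adjusted p was under 0.05 and the log2 fold change was at least 1 in size. Of the 9 genes, 7 were called higher, and 5.62% of the 15564 genes tested were called higher. With no minimum fold change all 9 were past the threshold, as were 18.5% of genes tested in the direction of hyperoxia. Groups that did not overlap in that direction were found for all 9 genes and for 17.8% of genes tested. Nothing is read from these counts, since this contrast helped to choose the genes. The gene just above the fold change threshold was Pmaip1 at 1.17 and the one just below it was Bbc3 at 0.66. All 9 genes passed the filter on low counts, Perp only through its hyperoxia libraries.

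Total counts ran from 16098086 to 18300730 per library and did not separate the groups (exact two-sided permutation test, p = 0.457). Summed pan-endothelial markers (10 genes) ran from 16870 to 17810 CPM for normoxia and from 16970 to 17860 CPM for hyperoxia, so this sum was at a similar level in all 8 libraries. Single genes of the list moved both ways. At an adjusted p under 0.05, 4 of the 10 were higher and 3 lower in hyperoxia, against 18.5% and 17.1% of all genes tested. Named after their values were seen, Tek went from 1182 to 682 CPM and Eng from 1644 to 2222 CPM. Markers of other lung cells were higher in hyperoxia. Summed alveolar type 2 markers (10 genes) went from 293 to 433 CPM up to 878 to 2630 CPM, alveolar type 1 markers (8 genes) from 78.2 to 97.5 up to 165 to 468 CPM, and epithelial adhesion markers (10 genes) from 8.45 to 17.1 up to 33.9 to 110 CPM. Fibroblast markers (10 genes) went from 399 to 576 up to 650 to 1208 CPM and mural markers (10 genes) from 48.1 to 85.1 up to 105 to 184 CPM. For these 5 sums the exact permutation p was 0.0286, the smallest that 4 against 4 libraries can give, and leukocyte markers (10 genes) overlapped between the groups (p = 0.143). The most abundant leukocyte marker, Lyz2 (77.3 and 225 CPM), also stands in the alveolar type 2 list, so these 2 sums are not independent. Fn1 (275 and 574 CPM) was the most abundant gene of the fibroblast list. No marker was at 0 in any library except 1 fibroblast and 1 mural gene. Among the hyperoxia libraries, hyperoxia 3 had the lowest sum of each of these 6 lists. Mitochondrial genes took 0.864 to 1.05% of counts in normoxia and 1.21 to 1.43% in hyperoxia, and their part in the results was not tested. In bulk RNA a change in the number of cells of a type and a change of RNA per cell cannot be told apart.

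**Figure D1:**
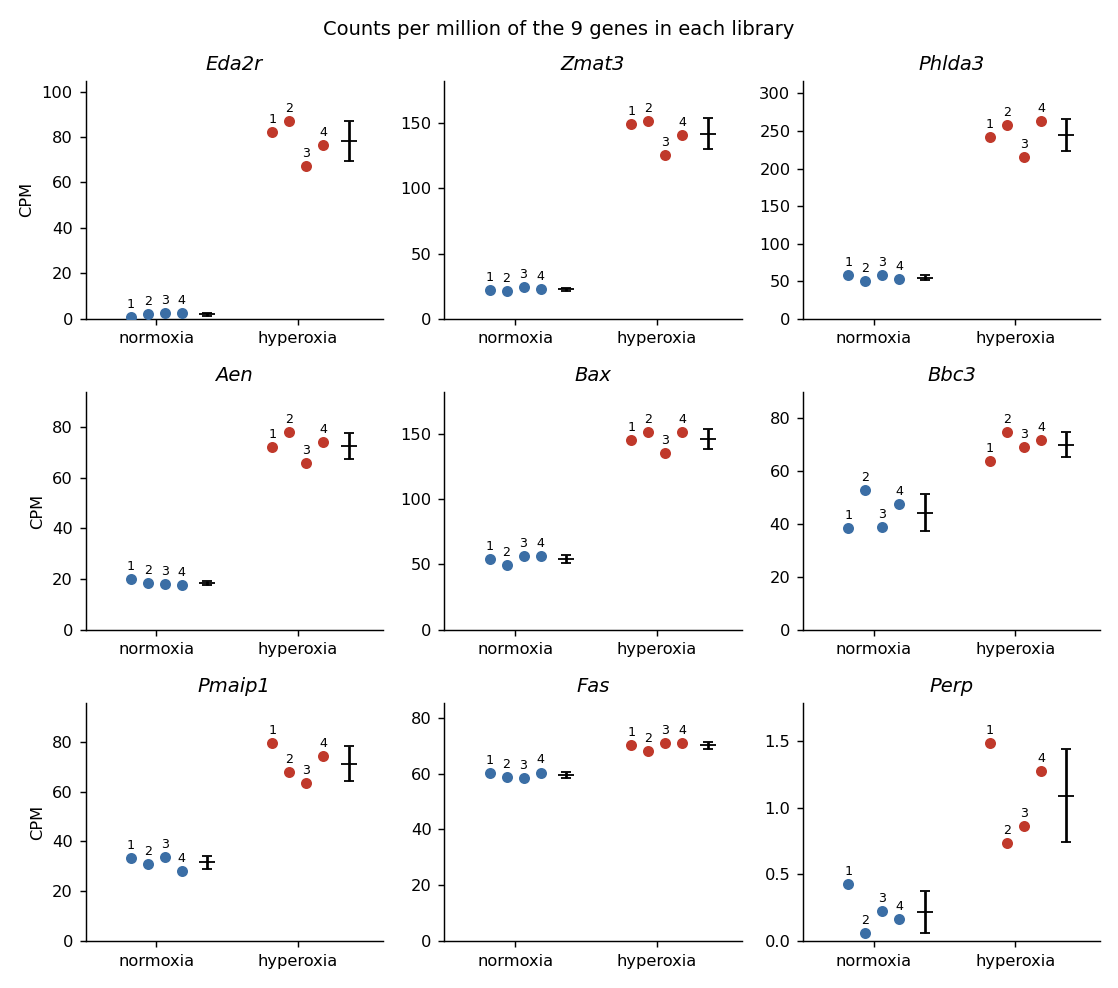
CPM of each of the 9 genes (vertical axis, linear from 0, separate scale per gene) in the 4 normoxia (blue) and 4 hyperoxia (red) libraries, numbered by replicate, with the mean and SD beside each group. In every panel the lowest red point lies above the highest blue point, by a ratio of 28.3 for Eda2r and of 1.13 for Fas.

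Eda2r (ENSMUSG00000034457, chromosome X, 97333840 to 97377216, minus strand, GRCm38) encodes a receptor of the tumour necrosis factor (TNF) receptor superfamily that binds the A2 form of ectodysplasin. It was close to silent in normoxia, with 0.919, 2.05, 2.35 and 2.38 CPM in replicates 1 to 4, which came from 15, 36, 42 and 43 counts. In hyperoxia it stood at 82.4, 87.2, 67.1 and 76.3 CPM, from 1443, 1540, 1173 and 1376 counts. Every hyperoxia library was thus far above every normoxia library, and the spread inside hyperoxia was small beside that gap. The means were 1.92 ± 0.686 and 78.3 ± 8.65 CPM (SD, n = 4 each), a log2 fold change of 5.33 (SE 0.179). Normoxia 1 was the lowest normoxia library, and leaving out 1 library at a time gave log2 fold changes between 5.11 and 5.44.

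Because Eda2r is X-linked, its level was set beside the sex of the pups. Xist, the RNA that coats the inactive X in female cells, was nearly absent from normoxia 2 (3 counts) and from hyperoxia 4 (5 counts), and chromosome Y genes had 54 counts in hyperoxia 3 against 1584 to 4273 in the other libraries. Hyperoxia 3, with almost no Y counts, had the lowest Eda2r level in hyperoxia, and hyperoxia 4, with almost no Xist, the second lowest. Zmat3, on chromosome 3, had the same order (149, 152, 125 and 141 CPM in hyperoxia 1 to 4). Hyperoxia 3 was also the lowest of its group for the autosomal genes Phlda3, Aen, Bax and Pmaip1. Normoxia 2 lay inside the range of its group. With the share of Y counts as a covariate, an alternative added after the data were seen, the log2 fold change of Eda2r was 5.34 (SE 0.185). Hyperoxia 3 also had the lowest sums of epithelial, fibroblast, mural and leukocyte markers in its group. Sex and cell make-up cannot be told apart in that library, and the part of sex in these levels was not tested.

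Zmat3 (ENSMUSG00000027663, chromosome 3, 32334792 to 32366014, minus strand) encodes a zinc finger protein that binds RNA and takes part in p53-dependent control of splicing and growth. It stood at 22.3, 21.5, 24.1 and 22.9 CPM in normoxia and at 149, 152, 125 and 141 CPM in hyperoxia. The normoxia libraries were nearly level, and hyperoxia 3 was the lowest of its group. The log2 fold change was 2.64 (SE 0.0705), or 6.25-fold, which was the second largest of the 9.

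Phlda3 (ENSMUSG00000041801, chromosome 1, 135766119 to 135769136, plus strand) encodes a small pleckstrin homology protein that competes with the survival kinase AKT for membrane lipids. It had 57.8, 50.5, 57.8 and 52.6 CPM in normoxia and 242, 257, 216 and 264 CPM in hyperoxia. It was the most abundant of the 9 genes in hyperoxia, again with hyperoxia 3 lowest. The log2 fold change was 2.16 (SE 0.0736).

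Aen (ENSMUSG00000030609, chromosome 7, 78895854 to 78911209, plus strand) encodes a nuclease that moves to the nucleus and degrades nucleic acids in dying cells. Its normoxia libraries had 19.8, 18.3, 18.1 and 17.7 CPM and its hyperoxia libraries 72.2, 78.0, 65.7 and 74.0 CPM. Both groups were tight and far apart. The log2 fold change was 1.97 (SE 0.0661), the median of the 9 genes, while the median over all genes tested was -0.0040.

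Of the mitochondrial route, Bax had the largest difference. Bax (ENSMUSG00000003873, chromosome 7, 45461697 to 45466898, minus strand), the pore-forming effector, had 54.1, 49.9, 56.2 and 56.2 CPM in normoxia and 145, 152, 136 and 151 CPM in hyperoxia. Its groups varied by 5.51% and 5.16% (coefficient of variation), and its log2 fold change was 1.43 (SE 0.0562). Gm45808, annotated on the same strand and without counts here, covers 12.2% of the Bax exon sequence.

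Pmaip1 (ENSMUSG00000024521, chromosome 18, 66458604 to 66465550, plus strand), which encodes the BH3-only protein NOXA, had 33.4, 31.0, 33.7 and 28.2 CPM in normoxia and 79.5, 67.7, 63.3 and 74.3 CPM in hyperoxia. Hyperoxia 1 was the highest library and hyperoxia 3 the lowest. The log2 fold change was 1.17 (SE 0.0822), or 2.26-fold.

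Bbc3 (ENSMUSG00000002083, chromosome 7, 16308393 to 16318205, plus strand), which encodes the BH3-only protein PUMA, moved less. Its values were 38.3, 52.5, 38.7 and 47.2 CPM in normoxia and 63.6, 74.6, 68.8 and 71.7 CPM in hyperoxia. Normoxia split into a lower pair (replicates 1 and 3) and a higher pair (replicates 2 and 4), a coefficient of variation of 15.7%, and the lowest hyperoxia library was only 1.21 times the highest normoxia library. The log2 fold change was 0.66 (SE 0.0999), below the size needed for a call. Bbc3 carries one of the 20-base elements shown above, and no effect of that element was tested.

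Fas (ENSMUSG00000024778, chromosome 19, 34290659 to 34327770, plus strand), the death receptor for FAS ligand, changed least. It had 60.3, 59.0, 58.5 and 60.4 CPM in normoxia and 70.4, 68.1, 71.0 and 71.1 CPM in hyperoxia. The groups did not overlap, and Fas was the steadiest of the 9 genes, with coefficients of variation of 1.63% in normoxia and 1.96% in hyperoxia. The log2 fold change was 0.24 (SE 0.0411). Fas and Eda2r belong to the same receptor superfamily, and their fold changes were the smallest and the largest of the 9.

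Perp (ENSMUSG00000019851, chromosome 10, 18845020 to 18857073, plus strand) encodes a membrane protein known both as a p53 death effector and as a part of desmosomes in epithelia. It was scarce throughout, with 7, 1, 4 and 3 counts in the normoxia libraries against 26, 13, 15 and 23 under hyperoxia. In CPM this was 0.429, 0.0569, 0.224 and 0.166 against 1.49, 0.736, 0.859 and 1.28. The groups did not overlap, but the spread inside each was wide. The ratio of the summed counts per library size was 5.08, from 15 counts in normoxia and 77 in hyperoxia. The fitted log2 fold change was 2.30 (SE 0.464). Epithelial adhesion markers were also higher in hyperoxia, as given above, and with the epithelial score described below as a covariate the log2 fold change of Perp was 1.25 with an SE of 1.13.

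Levels of different genes are compared per gene length, as FPKM (fragments scaled to the deposited gene length and library total). For Fas and Pmaip1 the deposited length is shorter than the merged exons of GENCODE M21. The longer length would give them a lower FPKM, so their places beside other genes depend on it. By the deposited lengths Phlda3, Bax and Fas were at the same level in normoxia, with 34.8 ± 2.46, 34.1 ± 1.99 and 32.8 ± 0.604 FPKM (SD, n = 4 each) and overlapping ranges. Bbc3 followed at 20.6 ± 3.15 FPKM and Pmaip1 at 11.8 ± 0.963 FPKM, each apart from its neighbours. Aen (3.16 ± 0.165 FPKM) and Zmat3 (1.97 ± 0.102 FPKM) were low and also apart. Eda2r (0.324 ± 0.115 FPKM) and Perp (0.111 ± 0.0797 FPKM) overlapped at the bottom. The most abundant genes of normoxia were therefore a kinase inhibitor, a pore former and a death receptor, and Eda2r was next to last.

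In hyperoxia the first 3 genes came apart. Phlda3 stood at 156 ± 13.6 FPKM, Bax at 92.0 ± 4.69 FPKM and Fas at 38.7 ± 0.710 FPKM, with no overlap between neighbours. Bbc3 (32.6 ± 2.28 FPKM) and Pmaip1 (26.8 ± 2.61 FPKM) now had overlapping ranges. Eda2r (13.2 ± 1.46 FPKM) had reached the level of Aen (12.4 ± 0.884 FPKM) and Zmat3 (12.3 ± 1.03 FPKM), and the ranges of these 3 overlapped. Perp remained last at 0.554 ± 0.177 FPKM.

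**Figure D2:**
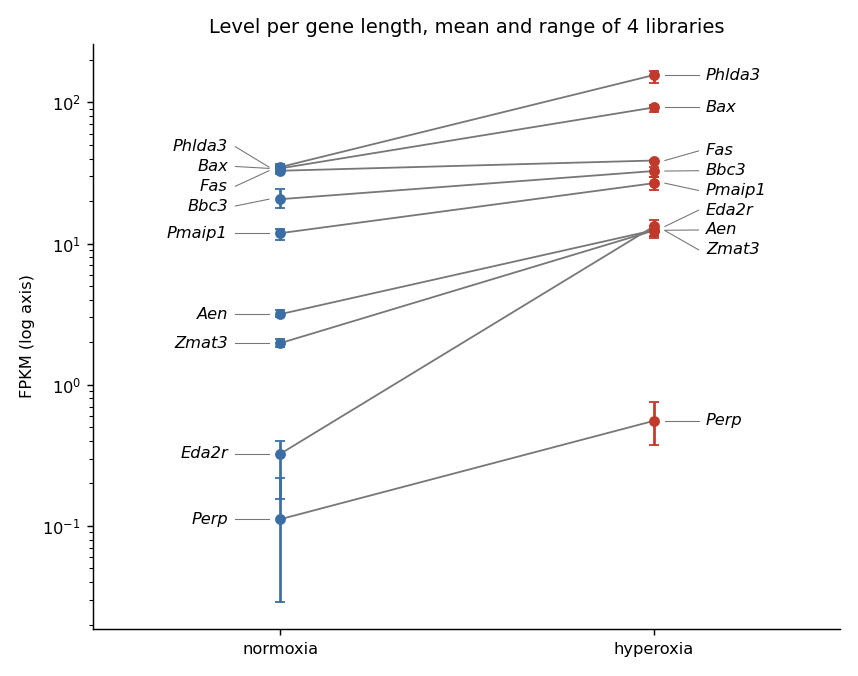
FPKM of the 9 genes (vertical log axis) in normoxia and hyperoxia, as the mean of 4 libraries with bars from the lowest to the highest library and a grey line joining the means of 1 gene. Phlda3, Bax and Fas share a level near 33 to 35 FPKM in normoxia and separate to 156, 92.0 and 38.7 FPKM in hyperoxia, while Eda2r climbs from 0.324 to 13.2 FPKM and meets Aen and Zmat3.

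The make-up of the set shifted with these changes. The CPM of the 9 genes summed to between 285 and 290 in the normoxia libraries and to between 813 and 938 in the hyperoxia libraries. Fas supplied 20.7 ± 0.375% of the normoxia sum (SD, n = 4) but 7.86 ± 0.618% of the hyperoxia sum (SD, n = 4), while Eda2r went from 0.669 ± 0.237% to 8.73 ± 0.551%. Phlda3 went from 19.0 ± 1.19% to 27.3 ± 0.921%, and Bbc3 from 15.4 ± 2.50% to 7.80 ± 0.600%. Zmat3 went from 7.89 ± 0.336% to 15.8 ± 0.603%. The shares of Bax (18.8 to 16.3%) and Pmaip1 (7.96% in hyperoxia) were smaller in hyperoxia although their CPM was higher, since a share depends on all 9 genes.

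Among the hyperoxia libraries, hyperoxia 3 was the lowest for 6 of the 9 genes (Eda2r, Zmat3, Phlda3, Aen, Bax and Pmaip1). Its CPM divided by the mean of the other 3 was 0.819 for Eda2r, 0.847 for Phlda3, 0.850 for Zmat3, 0.857 for Pmaip1, 0.879 for Aen and 0.908 for Bax. For Bbc3 and Fas the ratio was 0.984 and 1.02, and for Perp it was 0.737, with hyperoxia 2 lower still. The same ratio was 0.355 for summed alveolar type 2 markers, 0.371 for alveolar type 1 markers, 0.328 for epithelial adhesion markers, 0.507 for leukocyte markers, 0.597 for fibroblast markers, 0.687 for mural markers and 1.01 for pan-endothelial markers. The part of these cells in the levels of the 9 genes was not tested. Without hyperoxia 3 the log2 fold changes were 2.70 for Zmat3, 2.22 for Phlda3, 2.02 for Aen, 1.46 for Bax and 1.23 for Pmaip1, each slightly larger than with all libraries.

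**Figure D3:**
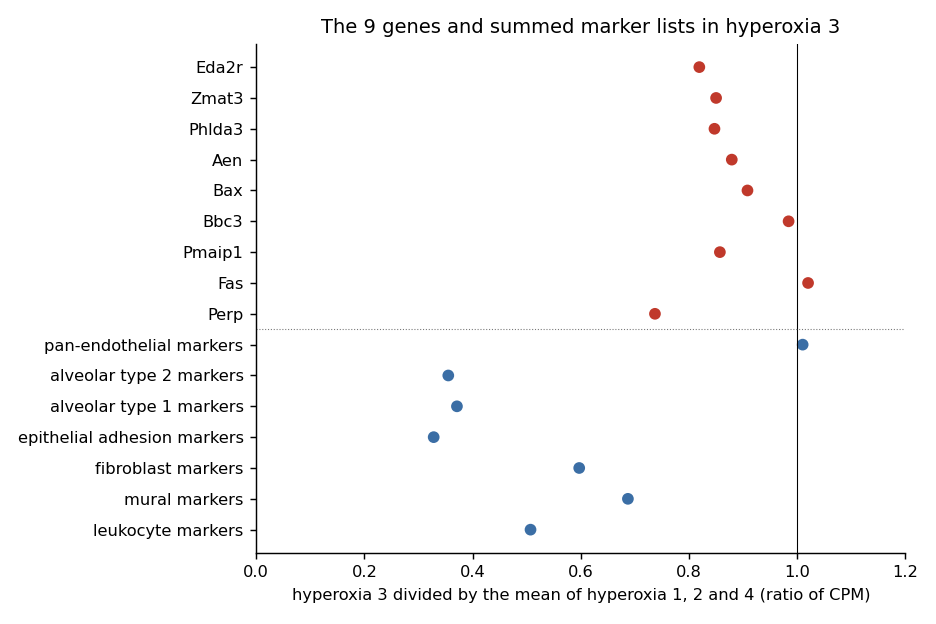
CPM in hyperoxia 3 divided by the mean of hyperoxia 1, 2 and 4 (horizontal axis, ratio) for the 9 genes (red) and for summed marker lists (blue), with a line at equality. The genes lie between 0.737 and 1.02, the 3 epithelial lists between 0.328 and 0.371, the leukocyte, fibroblast and mural lists between 0.507 and 0.687 and the pan-endothelial list at 1.01.

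A mean log2 CPM of the alveolar type 2, alveolar type 1 and epithelial adhesion lists (the epithelial score) was added to the model as a covariate. Eda2r then had a log2 fold change of 4.94 (SE 0.343), Zmat3 of 2.27 (SE 0.137), Phlda3 of 1.74 (SE 0.138), Aen of 1.63 (SE 0.137) and Bax of 1.24 (SE 0.143). These 5 genes were still called, in a model that called 0.996% of genes tested higher. Pmaip1 was no longer called (log2 fold change 0.72, SE 0.172), nor was Perp. Bbc3 and Fas had log2 fold changes of 0.80 (SE 0.281) and 0.28 (SE 0.122). Both had been past the adjusted p threshold without a covariate and were not past it with this score, nor with the one that follows. With a score of the fibroblast and mural lists in its place, 6 of the 9 were called, against 2.24% of genes tested, and Perp was the gene that was lost. Since the score and the groups run together, part of any difference can move to the covariate, and the share of the other cells in each gene's level was not tested.

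**Figure D4:**
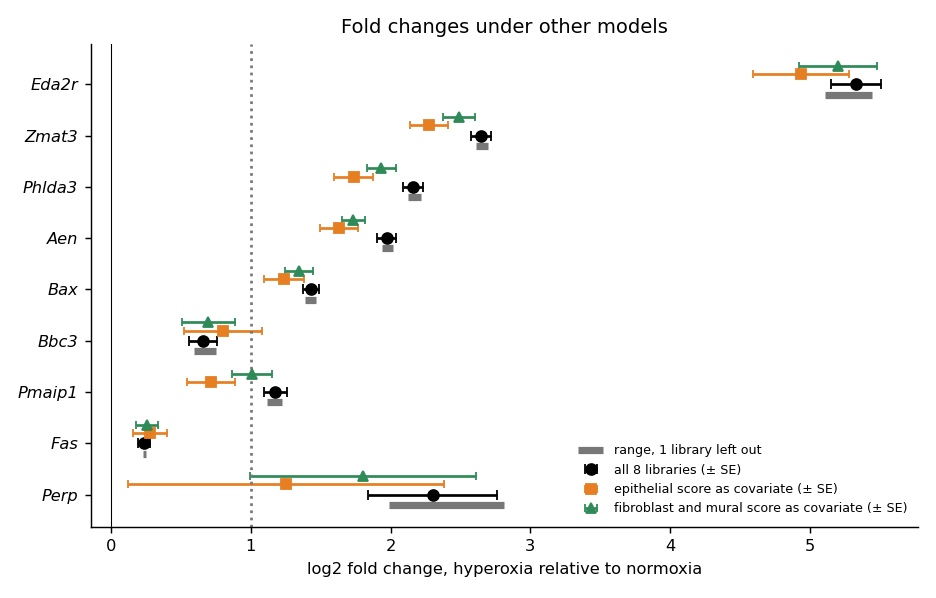
Log2 fold change (horizontal axis) of the 9 genes with all 8 libraries (black), with the epithelial score as a covariate (orange) and with the fibroblast and mural score as a covariate (green), each with its SE, and the range when 1 library is left out (grey bar). The dotted line marks the size needed for a call. Eda2r, Zmat3, Phlda3, Aen and Bax stay to its right under every model drawn, and Pmaip1 and Perp have the points that shift most, to 0.72 and 1.25.

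Genes around the 9 were taken from lists of the pathway and are counted beside the background of all genes tested. All these lists were written with earlier results of these data known. Their counts and p-values are therefore descriptions, and no response of a pathway is read from them. Of 35 other p53 targets tested, 12 were called higher and 0 lower by edgeR, against 5.62% and 1.36% of all genes tested, and their median log2 fold change was 0.765. DESeq2 and limma-voom also called 12 higher and 0 lower, and at an unadjusted p under 0.05 edgeR had 24 higher and 5 lower, against 23.0% and 22.2% of all genes tested. The list did not move as 1 body. At an adjusted p under 0.05 edgeR had 23 higher and 5 lower, against 18.5% and 17.1% of all genes tested. The 5 lower genes, named after their values were seen, were Sesn1, Ddb2, Rrm2b, Xpc and Ppm1d. Their log2 fold changes were -0.64, -0.50, -0.44, -0.35 and -0.31, in that order. Gdf15, a stress cytokine, rose from 6.18 ± 0.886 to 69.9 ± 7.76 CPM (log2 fold change 3.50, edgeR adjusted p 2.84e-08). Ephx1, an epoxide hydrolase, rose from 93.7 ± 1.51 to 256 ± 19.2 CPM (1.45, edgeR adjusted p 6.98e-08). Of the other called genes with a mean of at least 10 CPM, Dram1, Dcxr, Gtse1, Psrc1, Ccng1, Sesn2, Trp53inp1 and Rps27l had log2 fold changes of 2.74, 2.37, 2.32, 2.24, 1.70, 1.48, 1.35 and 1.09, in that order. Rprm, which falls below that level and passed the filter on low counts only through its hyperoxia libraries, was the remaining one. Among the 3 most abundant genes of the list, Cdkn1a, the p53-induced inhibitor of cyclin-dependent kinases, was called at 2.44, while Plk2 and Epha2 had -0.19 and 0.17 and did not pass the test. With the epithelial score as a covariate 7 of the 35 were called higher, against 0.996% of all genes tested in that model.

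The p53 gene itself did not pass the test. Trp53 stood at 127 ± 9.68 CPM under normoxia and at 116 ± 11.3 CPM under hyperoxia (log2 fold change -0.13, edgeR adjusted p 0.213), with overlapping groups. The mRNA does not report the amount of p53 protein, which is set largely by its degradation. Its family members Trp63 and Trp73 had 1 and 0 counts over the normoxia libraries and 3 and 2 counts over the hyperoxia libraries. Of 12 tested genes of p53 and its regulators, 1 was called higher and 0 lower by edgeR, against 5.62% and 1.36% of all genes tested. The same counts came from DESeq2 and limma-voom. At an unadjusted p under 0.05, 2 were higher and 6 lower, against the same 23.0% and 22.2%. Mdm4, an inhibitor of p53, fell from 223 ± 9.31 to 137 ± 7.44 CPM (log2 fold change -0.71, edgeR adjusted p 3.6e-06), short of a call. Mdm2, the ubiquitin ligase that p53 induces and that degrades it, was named after its values were seen and rose from 89.6 ± 7.99 to 143 ± 2.64 CPM (0.67, edgeR adjusted p 1.68e-05). Usp7, which removes ubiquitin from p53 and MDM2, was at 198 and 181 CPM and did not pass the test (edgeR adjusted p 0.0654). Mdm2, Ppm1d and Rps27l, the gene that was called, also stand in the list of p53 targets.

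Around Eda2r, the list holds other genes of the ectodysplasin axis, and whether they act with Eda2r in these cells was not tested. The ligand gene Eda had 22 counts over the normoxia libraries and 37 over the hyperoxia libraries, and the sister receptor gene Edar had 23 and 9. Both fell below the count filter of the edgeR and limma-voom tests. Of the 9 genes tested, 0 were called by edgeR or limma-voom, and DESeq2, which tested 11, also called 0. Among all genes tested edgeR called 5.62% higher and 1.36% lower. At an unadjusted p under 0.05 edgeR had 4 higher and 2 lower, against 23.0% and 22.2% of all genes tested. At an adjusted p under 0.05 it had 2 higher and 1 lower, against 18.5% and 17.1%. Without normoxia 1, 1 of the 9 was called higher. Below the fold change threshold, Rela, a subunit of NF-kB, rose from 145 ± 6.63 to 241 ± 8.85 CPM (log2 fold change 0.74, edgeR adjusted p 1.81e-06) and Nfkb1, another subunit, fell from 257 ± 7.14 to 190 ± 5.06 CPM (-0.43, edgeR adjusted p 2.51e-05). Map3k14, the NIK kinase of the non-canonical NF-kB route, also rose (0.36, edgeR adjusted p 0.0138). The adaptor genes Traf6 and Traf3, which sit under receptors of this family, had log2 fold changes of -0.11 and 0.07, and neither passed the test, nor did Traf1 (0.69), Tnfrsf19 (0.85), Edaradd (0.35) or Ikbkg (-0.09).

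For Fas, the ligand gene Fasl had 5 counts over the normoxia libraries and 15 over the hyperoxia libraries. Of 8 tested genes of this axis, 0 were called by edgeR or limma-voom, and DESeq2, which tested 10, also called 0. Among all genes tested edgeR called 5.62% higher and 1.36% lower. At an unadjusted p under 0.05 edgeR had 1 higher and 2 lower, against 23.0% and 22.2% of all genes tested. The counts were the same at an adjusted p under 0.05, against 18.5% and 17.1%. Casp8, the caspase that FAS recruits, fell from 90.4 ± 4.33 to 77.1 ± 7.31 CPM (log2 fold change -0.23, edgeR adjusted p 0.0234). Bid, which links the surface route to the mitochondria, rose from 5.81 ± 1.37 to 9.28 ± 1.09 CPM (0.67, edgeR adjusted p 0.0092). Cflar, the inhibitor of CASP8, was at 260 and 264 CPM and did not pass the test, and the same held for Fadd (-0.04), Ripk1 (0.08) and Daxx (0.31, all log2 fold changes).

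Around Bax, Bbc3 and Pmaip1, the list of other BCL2 family genes and of the mitochondrial step had 22 tested members. Of these, 1 was called higher and 1 lower, against 5.62% and 1.36% of all genes tested, and the median log2 fold change was 0.012. Without the minimum fold change 6 were higher and 6 lower, against 18.5% and 17.1% of all genes tested. Bcl2l11, which encodes the BH3-only protein BIM, fell from 90.2 ± 12.4 to 41.8 ± 2.69 CPM (log2 fold change -1.11, edgeR adjusted p 8.75e-06), the direction opposite to that of Bbc3 and Pmaip1. With the epithelial score as a covariate the list had 0 called in either direction, so this call was lost there. Bok, a BAX relative, rose from 8.03 ± 1.83 to 16.8 ± 1.47 CPM (1.07, edgeR adjusted p 0.000273), and this call was lost without normoxia 2, which left 0 called higher. The 3 most abundant members, Mcl1, Xiap and Apaf1, had log2 fold changes of -0.03, -0.03 and 0.15, and none of the 3 passed the test. The guardian genes Bcl2 and Bcl2l1, named after their values were seen, rose but stayed below the size needed for a call, with log2 fold changes of 0.82 (edgeR adjusted p 1.12e-05) and 0.82 (edgeR adjusted p 1.01e-06). The BH3-only genes Bik and Bmf, also named after their values were seen, fell short of a call. Their log2 fold changes were -0.73 (edgeR adjusted p 4.3e-05) and -0.73 (edgeR adjusted p 0.00104). Among other BH3-only genes of the list, Bid rose (0.67, edgeR adjusted p 0.0092) and Bad did not pass the test (-0.06).

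**Figure D5:**
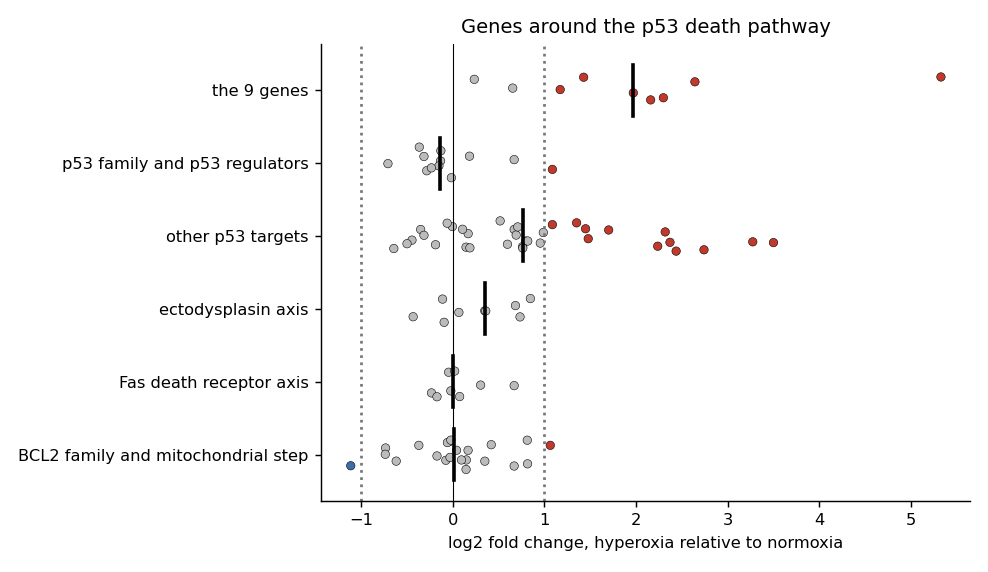
Log2 fold changes (horizontal axis) of the 9 genes and of the tested members of 5 lists around them, 1 point per gene, with red for genes called higher, blue for genes called lower, grey for the rest, a black bar at the median and dotted lines at the size needed for a call. The medians are 1.97 for the 9 genes, whose choice used this contrast, 0.765 for other p53 targets, 0.351 for the ectodysplasin axis, 0.002 for the Fas axis, 0.012 for the BCL2 list and -0.140 for p53 and its regulators. The 5 lists were written with earlier results of these data known.

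The genes whose pattern was most like a member were found by the root mean square difference of log2 CPM profiles (each relative to its normoxia mean) over the 8 libraries, among 9298 genes with a mean of at least 10 CPM. For Eda2r they were Zfp365 (0.344), Inhba (0.581), Ano3 (0.704), Hc (1.20) and Gpnmb (1.39). No gene came closer, whereas each of the other members except Perp had a neighbour within 0.112. Since profiles are relative to normoxia, this distance largely follows the size of the fold change, which helped to choose the genes. The normoxia values of Eda2r also rest on low counts (15 to 43 per library). Nothing further is read from these distances. The nearest gene was Gpx3 for Zmat3 (0.112), Sulf2 for both Phlda3 (0.101) and Aen (0.0775), Ephx1 for Bax (0.0624), Hivep3 for Bbc3 (0.0773), Dapk1 for Pmaip1 (0.102), Sgcb for Fas (0.0103) and Gda for Perp (0.372). The next nearest were Col6a1, Lilr4b, Fat1, Lmna, Zfp36, Egflam, Pip5k1c and Spint2 in the same order of members. Of these neighbours, Ephx1 also stands in the list of p53 targets used above.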

How the data were processed

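RNA of CD31 bead-bound lung cells was sequenced by the authors as paired ends of 150 bases. The authors deposited raw counts per gene and FPKM (fragments scaled to gene length and library total) of the same 8 libraries. The deposited gene length, in bases, is the merged exon length for 7 of the 9 genes. For Fas it is 1801 against 2062 merged exon bases, and for Pmaip1 2646 against 2732. The submitters' processing notes name HISAT2 2.0.5, featureCounts 1.5.0-p3 and mm10. Strand and multi-mapping settings are not given in the sources used here. Groups came from sample titles. Counts were tested with edgeR 4.0.16 (quasi-likelihood, TMM, filterByExpr, group only, R 4.3.3), with Benjamini-Hochberg adjustment over 15564 genes. The filter asked for about 0.566 CPM in 4 libraries. Alternatives used DESeq2 1.42.0 and limma 3.58.1. The test was first tested on simulated data. Coordinates are those of the files, and 53585 of 54532 gene entries have the same position in GENCODE M21 (GRCm38). The genes, lists and tests were chosen with earlier results of these data known. Genes named beside the 9 were the called members of a list with a mean of at least 10 CPM, its 3 most abundant members (all members of lists with few tested genes, 9 or 8), and the nearest profiles. A few further genes were named after their values were seen. Some genes of the lists are counted but not reported singly here.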

Additional observations from a re-analysis of the deposited data

Results flagged for a closer look

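Of 32 sets of 4 libraries (the 9 genes and 7 marker sums in both conditions), 2 had 1 library far from the other 3 by Dixon's criterion, which about 1 in 20 sets would meet by chance (1.6 of the 32). Both were in hyperoxia 3. Its summed alveolar type 1 markers stood at 165 CPM and its summed epithelial adhesion markers at 33.9 CPM, below the other hyperoxia libraries. None of the 9 genes met the criterion in either condition.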

How the results depend on the processing

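The 9 genes kept their direction under the alternatives that tested them, and the number called higher stayed between 5 and 9. With a minimum mean of 1 CPM Perp was not tested and 6 genes were called. Perp was not called with limma on log2(FPKM + 1) (0.48), with the epithelial score (1.25) or with the fibroblast and mural score as a covariate (1.80), and Pmaip1 was not called with the epithelial score (0.72). Genes called in all numbered 1087 (875 higher, 212 lower), against 350 with limma on log2(FPKM + 1), 5535 with no minimum fold change, 184 with the epithelial score and 440 with the fibroblast and mural score. For the lists, the count called higher without the minimum fold change was 23 for other p53 targets, 2 for p53 and its regulators, 2 for the ectodysplasin axis, 1 for the Fas axis and 6 for the BCL2 list. The share of all genes tested was 18.5% there. With the epithelial score the count called higher was 7 for other p53 targets, against 0.996% of all genes tested. That count was 0 for p53 and its regulators and for the BCL2 list, which also had 0 called lower. With 1 library left out, it was 0 to 1 for the BCL2 list (0 without normoxia 2) and 0 to 1 for the ectodysplasin axis (1 without normoxia 1). The cause of these shifts was not tested. Samples share only a replicate number: the correlation of same-numbered deviations was 0.119, 0.0361, -0.125 and -0.140. With the replicate number as a block, 1057 genes were called and 7 of the 9 genes were still called higher. Scarce counts limit Perp, Eda, Edar and Fasl.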
